A study of Mus musculus with 32 samples.

Results

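The 37 genes of the mouse mitochondrial genome were followed in bulk RNA sequencing of Pmel T cells. These CD8+ Thy1.1+ cells all bear the same transgenic receptor, which recognizes an antigen of melanocytes. The genes were taken by name, as every row of the deposited table with the mitochondrial prefix, 37 of 46517 rows. They are 13 messengers, 2 rRNAs and 22 tRNAs, with 28 genes on the plus strand and 9 on the minus strand of chromosome M in the mm10 build.

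The 32 libraries formed 8 groups of 4. All came from C57BL/6 mice of 16 weeks, and every sample, naive cells included, carries the label of melanoma-associated vitiligo, a loss of skin pigment that accompanies an immune response to melanoma. The groups were naive cells from spleen, cells from the lymph node that drains the tumor on day 12, memory cells from lymph node, and Pmel cells of the tumor itself and of 4 other organs, spleen, skin, lung and liver. Lymph node memory, skin, lung and liver cells were taken 45 days after tumor surgery. For naive, spleen and tumor cells no time is given in the labels. The labels do not state that the samples came from separate animals, so each p-value covers no more than the spread among these samples, which may be technical. Values are TPM, a share of the library scaled for gene length, and errors are SD over n = 4 libraries unless a standard error (SE) is named. The values give no counts, so the sequencing depth is unknown.

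The mitochondrial genome is copied into long RNAs from both strands, which are then cut at the tRNAs that lie between most of the other genes. Its messengers encode core subunits of the respiratory chain and the ATP synthase, which burn nutrients with oxygen to make ATP. The other subunits, the polymerase, the processing enzymes and the proteins of the mitochondrial ribosome come from nuclear genes. In T cells, activation and the turn to memory are known to change respiration.

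Of the 13 messengers, 7 belong to complex I (mt-Nd1, mt-Nd2, mt-Nd3, mt-Nd4, mt-Nd4l, mt-Nd5 and mt-Nd6), 1 to complex III (mt-Cytb), 3 to complex IV (mt-Co1, mt-Co2 and mt-Co3) and 2 to complex V (mt-Atp6 and mt-Atp8). mt-Rnr1 and mt-Rnr2 are the rRNAs of the small and large subunit of the mitochondrial ribosome. mt-Nd6 is the only messenger on the minus strand. All 13 messengers, both rRNAs and 1 tRNA, mt-Tl1, had at least 1 TPM in at least 4 libraries and were tested. The other 21 tRNAs were listed at 0 in all 32 libraries.

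Several of these genes share bases, which bears on how their values can be read. mt-Atp8 gave the only significant difference in a comparison of 2 groups and is shown whole, with the bases it shares with mt-Atp6 in capitals. The 3′ ends of mt-Nd4l and mt-Nd5 are shown with the bases shared with mt-Nd4 and, on the other strand, with mt-Nd6 in capitals. All are read 5′ to 3′ on the plus strand from the GENCODE transcripts of mm10, at M:7766-7969, M:10114-10173 and M:13506-13565.
mt-Atp8: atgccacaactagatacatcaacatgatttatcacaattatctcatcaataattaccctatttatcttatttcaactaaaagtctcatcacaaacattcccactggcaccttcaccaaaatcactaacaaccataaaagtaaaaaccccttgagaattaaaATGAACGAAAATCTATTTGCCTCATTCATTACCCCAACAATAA
mt-Nd4l, last 60 bases: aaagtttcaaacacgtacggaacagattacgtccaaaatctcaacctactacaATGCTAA
mt-Nd5, last 60 bases: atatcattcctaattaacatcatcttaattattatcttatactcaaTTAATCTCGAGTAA
The overlap of mt-Atp8 and mt-Atp6 is 43 bases of the 204 bases of mt-Atp8, at M:7927-7969. mt-Nd4l and mt-Nd4 share 7 bases at M:10167-10173. mt-Nd5 and mt-Nd6 share 14 bases on opposite strands at M:13552-13565. The sources used here do not say whether the libraries kept strand, so reads of mt-Nd6 and of RNA from the other strand cannot be told apart.

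The tRNAs mt-Tl1 and mt-Tl2 both carry leucine, and their anticodons are in capitals. They are shown because mt-Tl1 was the only tRNA above 0. Both lie on the plus strand, mt-Tl1 at M:2676-2750 between mt-Rnr2 and mt-Nd1, and mt-Tl2 at M:11671-11741 before mt-Nd5.
mt-Tl1: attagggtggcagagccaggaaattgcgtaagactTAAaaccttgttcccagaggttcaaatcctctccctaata
mt-Tl2: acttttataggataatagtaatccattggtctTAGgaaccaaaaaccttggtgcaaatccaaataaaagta
mt-Tl1 is the longest of the 22 tRNA genes, with 75 bases, and the others have 59 to 71 bases. Across the rest of the table, none of the 855 genes with an annotated length of 1 to 74 bases was above 0 in any library. Of the 392 genes of 75 to 80 bases, 157 (40.1%) were above 0 in at least 1 library, and so were 5 of the 34 genes of exactly 75 bases. The 21 tRNAs at 0 all fall in the length range in which no gene had a value.

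mt-Tl1 was above 0 in 13 libraries. Its values were 51.9, 276, 110 and 135 TPM in tumor replicates 1 to 4. In lymph node memory cells it was 79.7 TPM in replicate 3 and 76.7 TPM in replicate 4, and on day 12 it was 44.4 TPM in replicate 2 and 59.8 TPM in replicate 4. Naive replicate 2 had 114.8 TPM. The libraries numbered 4 were the ones above 0 in spleen (92.8 TPM), skin (59.6 TPM), lung (106.8 TPM) and liver (231.9 TPM). Tumor was the group in which all 4 libraries were above 0. At 75 bases, mt-Tl1 has the shortest length at which any gene had a value. The 5 other genes of 75 bases above 0 had highest values of 62.6 to 342 TPM. The number of reads behind each value of mt-Tl1 is unknown and may be small.

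Several messengers have near-identical copies in the nuclear genome, so their values are uncertain. The mm10 annotation places 7 of them side by side at 1:24611535-24616197, on the minus strand. Gm28437 is identical to mt-Co3 over its 783 bases, Gm10925 to mt-Atp6 over 678 bases and Gm10222 to mt-Nd4l over 294 bases. Gm28661 is identical to mt-Co2 over 681 bases and Gm28439 to part of mt-Nd4 over 876 bases. Gm29216 matches mt-Co1 at 99.8% over 483 bases. Gm28438 matches mt-Nd3 at all but 1 of 345 bases, T3C, with positions counted from 1 at the 5′ end of mt-Nd3. The stretch is shown as an example of how little separates a copy from its gene, with the differing base in capitals. The stretch shown of mt-Nd3 lies at M:9459-9490 on the plus strand and that of the copy at 1:24613088-24613119 on the minus strand.
mt-Nd3, first 32 bases: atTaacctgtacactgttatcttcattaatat
Gm28438, first 32 bases: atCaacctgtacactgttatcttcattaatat
The sources used here do not say how reads that match both places were assigned. Gm28437, Gm10925, Gm10222 and Gm29216 were above 0 in all 32 libraries. Gm28438 was above 0 in 5 libraries, Gm28661 in 6 and Gm28439 in none.

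The nuclear copies took very unequal shares between replicates of a group. Gm28437 held 45.5% of the summed TPM of itself and mt-Co3 in spleen replicate 4 and between 0.541% and 14.1% in the other 3 spleen libraries. In lung it held 75.1% in replicate 4 and at most 22.2% in the others, and in liver 63.2% in replicate 4 and at most 13.7% in the others. In tumor it held 2.74% to 12.997%. Gm10925 held 0.0225% to 50.2% of the sum with mt-Atp6 in spleen and 12.6% to 16.2% in tumor. Gm29216, the copy of part of mt-Co1, was the larger of its pair: it held 58.9% to 65.4% of the sum with mt-Co1 in naive cells, 61.1% to 70.0% on day 12, 62.4% to 80.6% in spleen and 65.2% to 66.7% in tumor. Gm10222 held the whole sum with mt-Nd4l, which was listed at 0, in lymph node memory replicate 1, lung replicate 2 and liver replicate 1. The SD within groups of log2(TPM + 1) was 2.65 for mt-Nd4l as deposited and 1.01 with its copy added. It was 0.90 and 0.87 for mt-Co3, 0.89 and 0.85 for mt-Atp6, 0.91 and 0.91 for mt-Co1 and 0.89 and 0.89 for mt-Co2. For mt-Atp8 the annotation lists no copy among these rows, and its SD was 0.80. It shares 43 bases with mt-Atp6, whose copy Gm10925 matches 678 of its 681 bases. The copies of the genes on either side of mt-Atp8, Gm10925 (1:24613974-24614651) and Gm28661 (1:24614885-24615565), lie next to each other. Reads of mt-Atp8 that match the bases between them would have no row to hold them, and this was not tested.

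**Figure D1:**
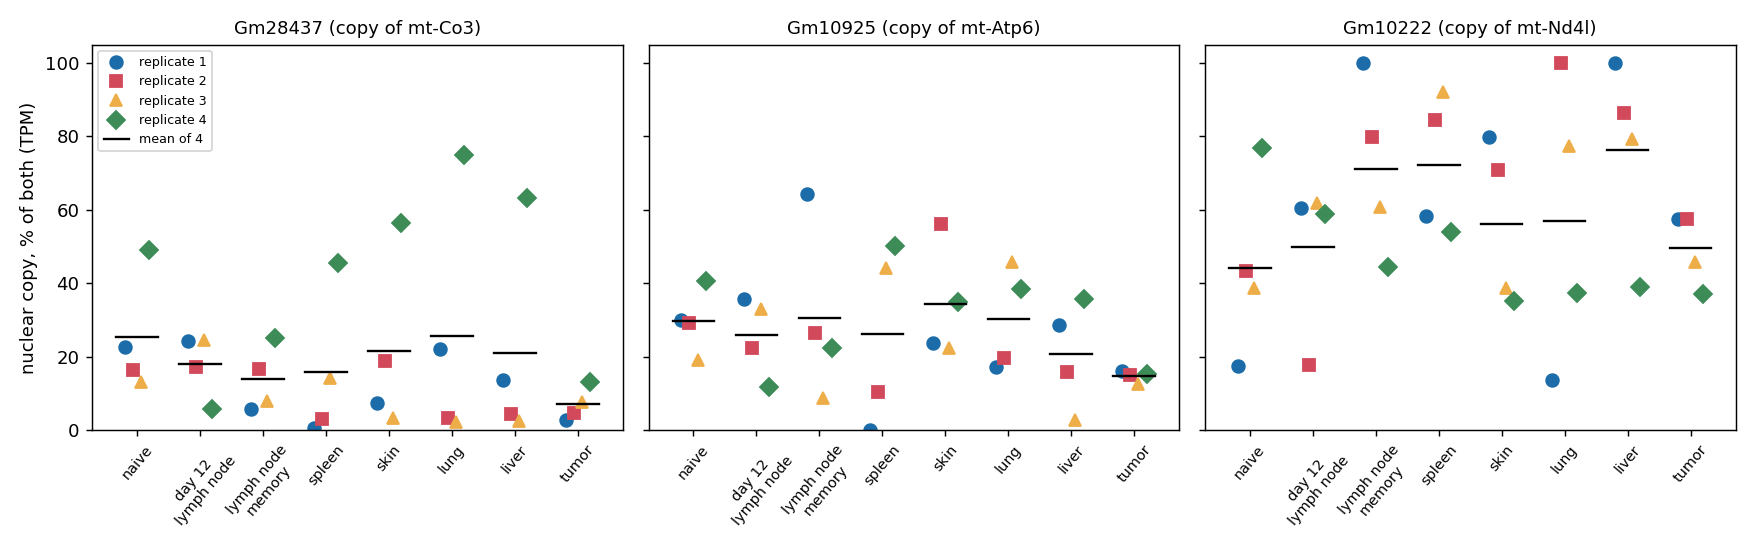
Share of the nuclear copy in the summed TPM of copy and mitochondrial gene, in percent, for mt-Co3, mt-Atp6 and mt-Nd4l. Each point is a library, with the shape giving its replicate number, and bars are means of 4. Gm28437 reaches 75.1% in lung replicate 4, while the 4 tumor libraries all lie under 15%.

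Mitochondrial RNA made up a few percent of most libraries and more in tumor and in part of the liver libraries. The 13 messengers summed to 2.20% ± 0.205 of the library in naive cells, 2.24% ± 0.21 on day 12, 2.82% ± 1.35 in lymph node memory cells and 3.06% ± 1.33 in spleen. They summed to 2.91% ± 2.07 in skin, 2.22% ± 1.198 in lung, 8.14% ± 8.33 in liver and 8.55% ± 3.92 in tumor. The 4 tumor libraries held 6.63%, 14.1%, 8.28% and 5.18%, and the 4 spleen libraries 2.48%, 2.67%, 5.02% and 2.06%. Every tumor library lay above every spleen library. The 4 liver libraries held 1.35%, 19.8%, 3.01% and 8.43%. Liver replicate 1 lay below every naive library and replicate 2 above every other library of the series. With the nuclear copies added, the share was 9.29% ± 4.23 in tumor and 3.58% ± 1.64 in spleen.

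The 2 rRNAs followed another order. Their sum was 0.231% ± 0.044 of the library in naive cells, 0.380% ± 0.114 on day 12, 0.495% ± 0.231 in lymph node memory cells and 0.656% ± 0.332 in spleen. It was 0.395% ± 0.065 in skin, 0.368% ± 0.270 in lung, 1.36% ± 1.61 in liver and 0.432% ± 0.201 in tumor. Tumor, with a high share of messengers, was not high in rRNA. The ratio of rRNA to messenger TPM lay between 0.045 and 0.058 in the 4 tumor libraries, below each of the other 28 libraries, of which the lowest was liver replicate 4 at 0.064. With nuclear copies added to the messengers, liver replicate 4 at 0.0512 fell inside the tumor range of 0.0412 to 0.0537. The sources used here do not say how rRNA was handled when the libraries were made.

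**Figure D2:**
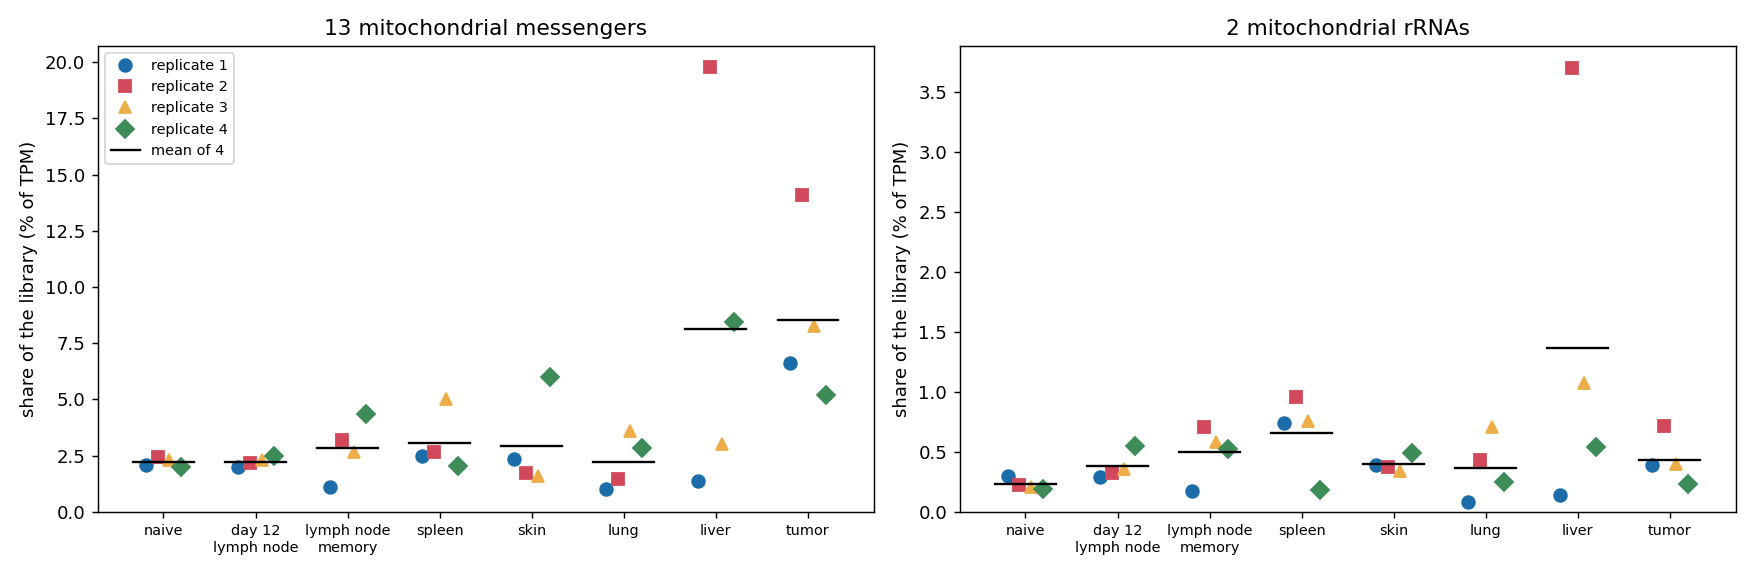
Share of each library's TPM, in percent, held by the 13 mitochondrial messengers (left) and the 2 mitochondrial rRNAs (right) in the 8 groups. Points are libraries, with the shape giving the replicate number, and bars are means of 4. The messengers hold 5.18% to 14.1% in the tumor libraries, and liver replicate 2 stands highest in both panels.

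Libraries differed in how much of their RNA was of T cells. The summed TPM of 16 T cell genes, such as the CD8 and CD3 chains, ran from 37436 to 43499 in naive libraries, 11889 to 32026 in spleen, 5573 to 34271 in skin, 3320 to 28080 in liver and 13995 to 35291 in tumor. Trbc2 was the largest term of the sum in every group mean, at 27032 TPM in naive cells, 11660 TPM in spleen and 17644 TPM in tumor. Each of the 16 genes was above 0 in all libraries. The sum was under 0.5 of the median of all libraries in 6 libraries. They were replicate 4 of each of spleen, skin, liver and tumor and replicates 2 and 3 of liver. Tumor replicate 4, at 0.494 of the median, was nearest to this cutoff. Genes above 0 ranged from 10732, in liver replicate 2, to 34211, in skin replicate 4. In bulk samples, fewer cells of a type and less RNA per cell cannot be told apart.

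Liver replicate 2, with the highest mitochondrial share, held 11609 TPM of 8 hepatocyte genes and 15890 TPM of 11 myeloid genes, against 8075 TPM of T cell genes. Skin replicate 4, the highest skin library at 5.98% messengers against 1.59% to 2.33% in the other 3, held 5573 TPM of T cell genes and 2773 TPM of 6 keratinocyte genes. The part of other cells in these mitochondrial values was not tested.

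Within the messengers, the most abundant per length were the complex V genes mt-Atp8 and mt-Atp6 and the complex IV genes mt-Co3 and mt-Co2 in every group mean. mt-Nd4l was the lowest of the 13 in every group mean. The order along the genome was much alike between groups while the height differed, as the plot of mean levels by gene shows.

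**Figure D3:**
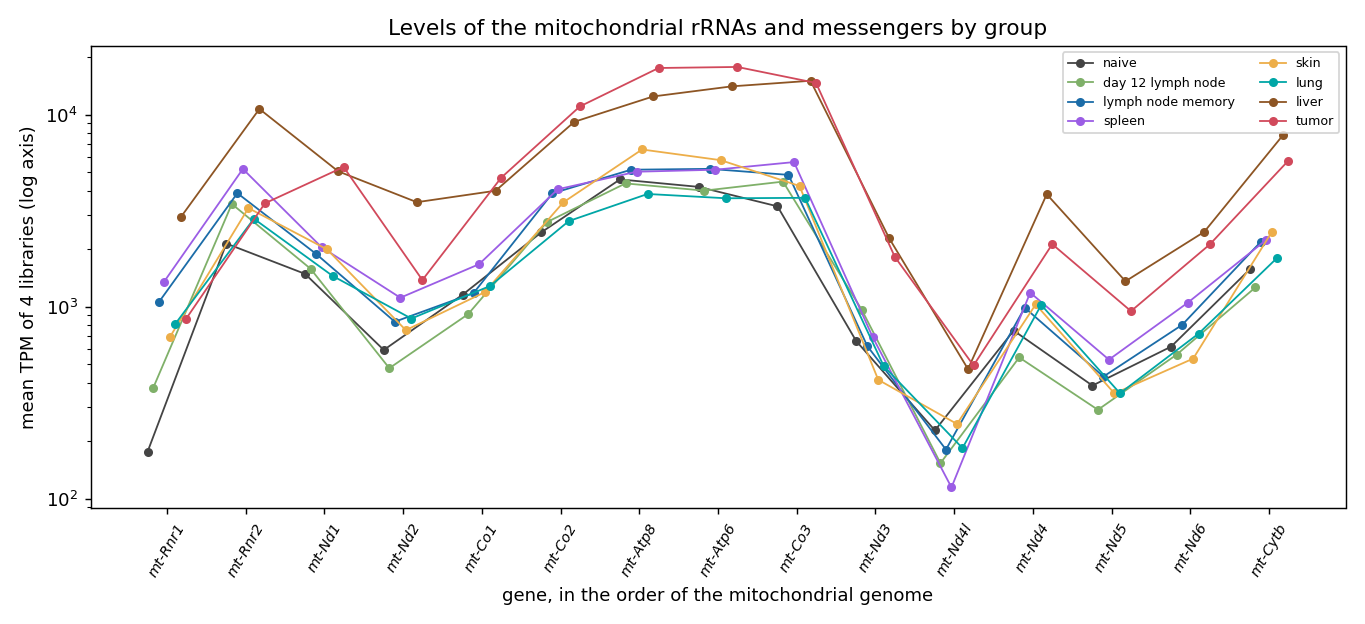
Mean TPM of 4 libraries (log axis) of the 2 rRNAs and 13 messengers, in genome order, with 1 colour per group. Tumor and liver lie above the other groups for the messengers, mt-Nd4l is lowest among the messengers, and tumor falls among the other groups for mt-Rnr1 and mt-Rnr2.

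Across the 8 groups, 6 of the 13 messengers differed by limma's F test with Benjamini-Hochberg adjustment over 19738 genes. They were mt-Atp8 (adjusted p = 0.0137), mt-Atp6 (adjusted p = 0.0205), mt-Co1 (adjusted p = 0.0207), mt-Co2 (adjusted p = 0.0425), mt-Nd6 (adjusted p = 0.0449) and mt-Co3 (adjusted p = 0.0479). Of all genes tested, 46.9% differed among the groups, so 6 of 16 mitochondrial genes is not above the background. mt-Co1 is among them with the uncertainty that its copy held more TPM than the gene in each of these groups: naive, day 12, spleen and tumor. The count rested on single libraries: without tumor replicate 2 none was called, without tumor replicate 3 only 1, and without liver replicate 1 there were 13, where these fits called 42.9%, 42.5% and 54.1% of all genes. With the 6 libraries low in T cell genes left out it was 14, and 52.5% of all genes.

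The complex V messengers encode membrane parts of the ATP synthase, where mt-Atp6 lines the path of the protons and mt-Atp8 is a small partner. mt-Atp8 averaged 4597 ± 435 TPM in naive cells, 4383 ± 339 on day 12, 5164 ± 2382 in lymph node memory cells and 5042 ± 3082 in spleen. It averaged 6583 ± 5099.7 TPM in skin, 3861 ± 2043 in lung, 12432 ± 9449.6 in liver and 17491 ± 7897 in tumor. Tumor was the highest of the 8 means and lung the lowest. mt-Atp6 averaged 4204 ± 508 TPM in naive cells, 4018 ± 430.5 on day 12, 5218 ± 3017 in lymph node memory cells and 5164 ± 1518 in spleen. In skin, lung, liver and tumor the means were 5790.1 ± 5063, 3667 ± 1501, 14035 ± 12875 and 17711 ± 7723 TPM. The ratio of mt-Atp8 to mt-Atp6 averaged 0.983 to 1.24 over the 8 groups, and over the spleen libraries it ranged from 0.435 to 1.40. With the copy Gm10925 added to mt-Atp6 it was 0.640 ± 0.141 in spleen and 0.840 ± 0.027 in tumor.

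The complex IV messengers encode the catalytic core of cytochrome c oxidase, which passes electrons to oxygen. mt-Co1 averaged 1153 ± 47.6 TPM in naive cells, 913 ± 122 on day 12, 1176 ± 935 in lymph node memory cells and 1663 ± 744 in spleen. It averaged 1188 ± 449.8 TPM in skin, 1281 ± 738 in lung, 4014 ± 4091 in liver and 4688 ± 2206 in tumor. For mt-Co1 the day 12 libraries, at 761 to 1054 TPM, lay below all naive libraries, at 1104 to 1204 TPM. mt-Co2 averaged 2436 ± 152 TPM in naive cells, 2754 ± 509 on day 12, 3888 ± 1841 in lymph node memory cells and 4087 ± 1600.0 in spleen, then 3493 ± 2638 in skin, 2790.3 ± 1561 in lung, 9175 ± 10111 in liver and 11026 ± 5055 in tumor. mt-Co3 averaged 3329.5 ± 822 TPM in naive cells, 4478 ± 578 on day 12, 4855 ± 1665 in lymph node memory cells and 5659.7 ± 2909.6 in spleen, then 4249.8 ± 935 in skin, 3687 ± 2986 in lung, 15006 ± 20964 in liver and 14619 ± 7169.9 in tumor. The liver mean of mt-Co3 rested on replicate 2, at 46317 TPM, while the other 3 liver libraries lay between 1942 and 6578 TPM.

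mt-Cytb, the only complex III messenger, encodes cytochrome b, where electrons from ubiquinol split. It averaged 1565 ± 90.7 TPM in naive cells, 1259 ± 147 on day 12, 2179 ± 1039.9 in lymph node memory cells, 2231 ± 1301 in spleen, 2454 ± 2350.3 in skin, 1801 ± 1253 in lung, 7814 ± 7982 in liver and 5766 ± 2829 in tumor. Like mt-Co1, it lay lower in each day 12 library (1096 to 1387 TPM) than in each naive library (1478 to 1687 TPM).

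The complex I messengers encode the membrane arm of the enzyme that takes electrons from NADH. mt-Nd1 averaged 1481 ± 72.0 TPM in naive cells, 1575 ± 108 on day 12, 1882 ± 934 in lymph node memory cells, 2039 ± 989 in spleen, 1986 ± 1739.9 in skin, 1445 ± 889 in lung, 5068 ± 5340.3 in liver and 5335 ± 2317 in tumor. mt-Nd2 averaged 595 ± 40.8, 478 ± 91.4, 835 ± 377, 1113 ± 554, 754 ± 491, 867 ± 696, 3499 ± 3659.5 and 1376 ± 653 TPM in the same order of groups. mt-Nd2 was nearer to spleen in tumor than mt-Nd1 was. mt-Nd3 averaged 662 ± 94.9, 964 ± 157, 624 ± 323, 693 ± 409, 416 ± 223, 489.7 ± 514, 2266 ± 3178 and 1818 ± 981 TPM. mt-Nd4 averaged 750.2 ± 33.3, 544 ± 106, 988 ± 517, 1183 ± 475, 1027 ± 1077, 1021 ± 723, 3849 ± 4020.0 and 2115 ± 1031 TPM. These 2 messengers went apart on day 12, where the mean of mt-Nd3 was above and that of mt-Nd4 below the naive mean. mt-Nd4l averaged 227 ± 99.1, 153 ± 61.5, 180.1 ± 169.5, 114 ± 44.4, 245 ± 265, 183 ± 161, 473 ± 469 and 494 ± 189 TPM. mt-Nd5 averaged 388 ± 81.2, 290.2 ± 14.9, 432 ± 173, 529 ± 275, 353 ± 283, 354 ± 229, 1356 ± 1492 and 947 ± 478 TPM. mt-Nd6 averaged 619 ± 100.7, 563 ± 118, 804 ± 423, 1047 ± 351, 536 ± 463, 724 ± 505, 2451 ± 2534 and 2107 ± 865 TPM. For mt-Nd6, skin had the lowest mean of the 8 groups.

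The rRNAs spread far more between groups at mt-Rnr1 than at mt-Rnr2. mt-Rnr1 averaged 176 ± 41.1 TPM in naive cells, 376 ± 115 on day 12, 1051 ± 859 in lymph node memory cells, 1349 ± 896 in spleen, 691 ± 242 in skin, 811 ± 806 in lung, 2918 ± 3930.2 in liver and 865 ± 377 in tumor. mt-Rnr2 averaged 2131 ± 404, 3425 ± 1034, 3899 ± 1599, 5214 ± 2459, 3261 ± 819.7, 2869 ± 1906, 10705 ± 12142 and 3452 ± 1641 TPM in the same order. Neither rRNA differed among the 8 groups, with adjusted p = 0.227 for mt-Rnr1 and 0.376 for mt-Rnr2 by limma's F test.

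The tumor cells were set against those of spleen to ask what marks T cells inside the tumor, and 1 messenger rose. mt-Atp8 rose by 1.89 ± 0.53 (SE) on the log2(TPM + 1) scale, from 2275, 3824, 9425 and 4645 TPM in spleen replicates 1 to 4 to 13596, 28999, 15973 and 11395 TPM in tumor (limma, adjusted p = 0.0265). Each tumor library lay above each spleen library. It was 1 of the 16 mitochondrial genes tested, against 6.25% of all genes called and 3.42% called higher. A single call among 16 is no more than that background. At an unadjusted p under 0.05 there were 8 of 16, and 18.1% of all genes.

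All 13 messengers had estimates above 0 in tumor minus spleen, with a median of 1.40 against a median of -0.03 over all genes tested. mt-Atp6 was 5236, 5087, 7024 and 3310 TPM in spleen and 13175, 28702, 17374 and 11592 TPM in tumor, a log2 difference of 1.74 ± 0.59 (SE) that missed the threshold (limma, adjusted p = 0.0773). Its groups did not overlap, nor did those of mt-Co2 (1.40 ± 0.58), mt-Nd4l (2.11 ± 1.70) and mt-Atp8, and 6.86% of all genes lay higher in tumor without overlap. mt-Co1 had a log2 difference of 1.47 ± 0.60, mt-Co3 1.40 ± 0.59, mt-Cytb 1.40 ± 0.67, mt-Nd3 1.43 ± 0.76 and mt-Nd1 1.39 ± 0.61. In each of these 5, 3 of the 4 tumor libraries lay above every spleen library, and the tests gave adjusted p from 0.163 to 0.337 (limma). Lower estimates came at mt-Nd6 with 0.99 ± 0.64, mt-Nd5 with 0.82 ± 0.61, mt-Nd4 with 0.79 ± 0.70 and mt-Nd2 with 0.33 ± 0.64.

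The rRNAs did not share this direction. mt-Rnr1 had a log2 difference of -0.23 ± 0.97 (SE) and mt-Rnr2 of -0.51 ± 0.63 between tumor and spleen, neither called (limma, adjusted p = 0.951 and 0.773). mt-Tl1, listed at 0 in spleen replicates 1 to 3, differed by 5.29 ± 2.08 and missed the threshold (limma, adjusted p = 0.144).

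In a fit of tumor and spleen alone, which called 6.21% of all genes, mt-Nd4l was called and mt-Atp8 was not. The SD of mt-Nd4l within groups was 2.65, and 1.01 with its copy Gm10222 added. The difference of mt-Nd4l ran from 0.95 to 2.42 over the alternatives other than single omissions. With nuclear copies added in the fit of all groups, mt-Nd4l was not called. The call of mt-Atp8 was also lost with no filter on low values, and when spleen replicate 1, spleen replicate 2, tumor replicate 2 or tumor replicate 3 was left out, while its difference stayed between 1.57 and 2.25 over all single omissions. With the 6 libraries low in T cell genes left out, 6 members were called, where 13.6% of all genes were: mt-Tl1, mt-Nd1, mt-Co2, mt-Atp8, mt-Atp6 and mt-Cytb. In that fit mt-Atp8 rose by 2.09 ± 0.46 (SE; limma, adjusted p = 0.00343).

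Markers of other cells also moved between tumor and spleen. Of 5 melanocyte and melanoma genes 4 were called higher, and their sum was 358 to 840 TPM in tumor and 5.61 to 17.9 TPM in spleen, with Tyrp1, Dct and Mlana at 0 in at least 1 spleen library. Of 5 erythroid genes 1 was called higher, with sums of 3609 to 12466 TPM in tumor and 69.2 to 1178 TPM in spleen. Of 6 B cell genes 5 were called lower, with 56.7 to 141 TPM in tumor and 1503 to 17884 TPM in spleen. Their part in the mitochondrial values was not tested. Taking the marker genes out of the TPM total, which only rescales each library, gave 1.88 ± 0.54 (SE) for mt-Atp8 (limma, adjusted p = 0.0304).

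None of the 75 nuclear subunits of complexes I to V was called between tumor and spleen. The medians were -0.20 for 36 complex I genes, 0.02 for 4 complex II genes, -0.20 for 9 complex III genes, -0.03 for 11 complex IV genes and -0.04 for 15 complex V genes. No gene called came from the 13 of mitochondrial DNA and transcription, the 27 of RNA processing and stability or the 17 tRNA synthetases. Of 77 mitochondrial ribosomal proteins, Mrpl23, of the large subunit, was the only one called, and fell by 2.64 on the log2 scale (limma, adjusted p = 0.0362).

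**Figure D4:**
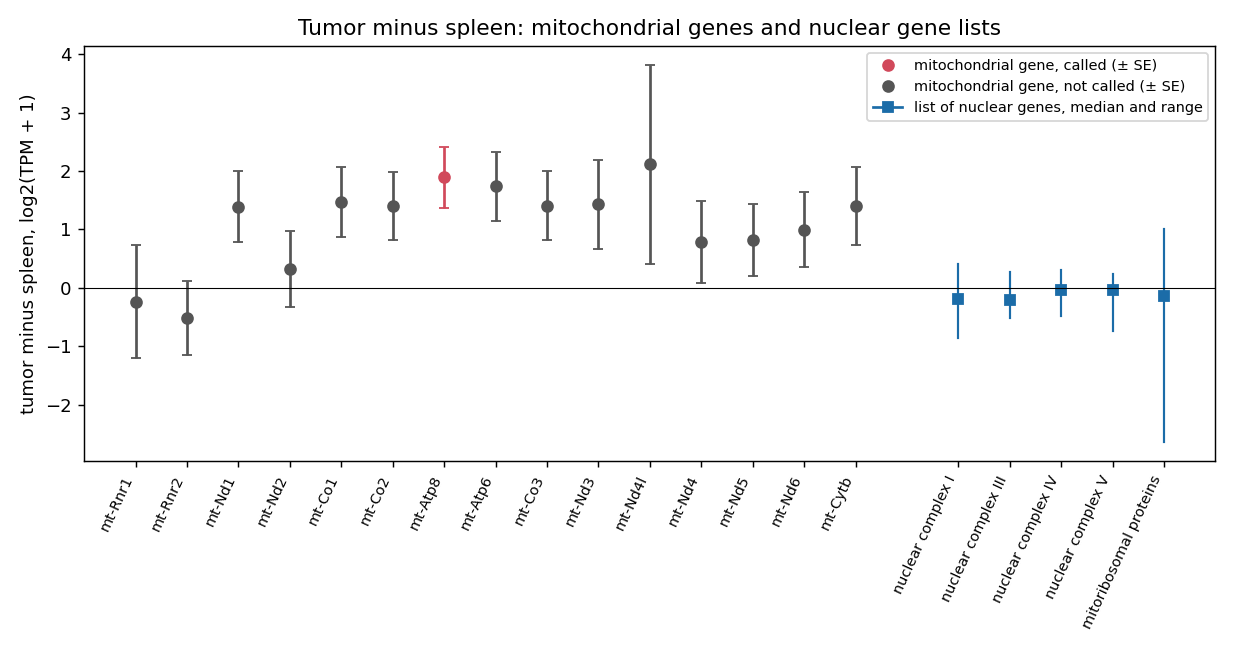
Tumor minus spleen on the log2(TPM + 1) scale for the 2 rRNAs and 13 messengers (points, bars ± SE), and for lists of nuclear genes (squares are medians, lines the range of the list). mt-Atp8 at 1.89 is the only mitochondrial gene called, and the medians of the 5 nuclear lists plotted, complexes I, III, IV and V and the mitochondrial ribosomal proteins, lie between -0.20 and -0.03.

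Of the 7 complex I messengers, 3 held shares of the messenger sum that did not overlap between tumor and spleen. Shares of 1 sum are tied, so a lower share of some messengers goes with a higher share of others. The messengers outside complex I are not given here, and the count has no background over all genes. Shares of single genes with nuclear copies added are not given either. mt-Nd2 held 1.297% to 1.79% of the messenger sum in tumor and 2.40% to 4.18% in spleen, without overlap. mt-Nd4 held 2.10% to 2.72% against 3.70% to 4.33%, and mt-Nd5 0.879% to 1.21% against 1.52% to 1.87%, also without overlap. The shares of the other 4 overlapped, with 5.95% to 6.94% in tumor and 5.45% to 7.69% in spleen for mt-Nd1 and 2.29% to 2.71% against 2.67% to 5.06% for mt-Nd6. mt-Nd3 held 1.89% to 2.305% against 1.59% to 2.85%, and mt-Nd4l 0.496% to 0.694% against 0.180% to 0.752%. The 7 complex I messengers together held 16.6% ± 1.1 in tumor and 22.0% ± 1.1 in spleen, where the ranges of 15.3% to 17.8% and 20.9% to 23.4% did not overlap. With nuclear copies added they held 15.7% ± 1.1 and 20.1% ± 2.6, and the ranges overlapped.

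Day 12 was set against naive cells to ask what the first response in the lymph node changed, and against lymph node memory cells to ask what changed later. None of the 16 mitochondrial genes was called on day 12 against naive cells (limma; 0 at an unadjusted p under 0.05), while 11.1% of all genes were. The 13 messengers had a median difference of -0.15, with 4 above 0, against -0.19 over all genes. mt-Co1 at -0.35 ± 0.60 (SE), mt-Nd4 at -0.48 ± 0.70 and mt-Cytb at -0.32 ± 0.67 lay lower on day 12 without overlap, and mt-Rnr1 at 1.08 ± 0.97 lay higher without overlap. For mt-Rnr1 the naive libraries held 230.1, 166, 176 and 131 TPM and the day 12 libraries 271, 306, 401 and 528 TPM. In this comparison 51.3% of all genes did not overlap, more than the 4 of 16 here.

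The SE of mt-Rnr1 was 0.97 with the spread pooled over all 8 groups and 0.24 with that of these 2 groups alone. A fit of these 2 groups alone called 7 of 16 members and 54.4% of all genes, so 7 is not above its background. It had mt-Rnr1 (1.08 ± 0.24 SE, adjusted p = 0.00603), mt-Rnr2 (0.66 ± 0.22, adjusted p = 0.0365) and mt-Nd3 (0.54 ± 0.16, adjusted p = 0.0197) higher. mt-Nd4 (-0.48 ± 0.13, adjusted p = 0.0161), mt-Co1 (-0.35 ± 0.11, adjusted p = 0.0246), mt-Cytb (-0.32 ± 0.10, adjusted p = 0.0310) and mt-Nd5 (-0.40 ± 0.14, adjusted p = 0.0456) were lower in that fit by limma. Within the messengers, mt-Nd3 held 3.66% to 4.83% of the sum on day 12 and 2.72% to 3.18% in naive cells. Its day 12 shares lay above those of all other 28 libraries, of which the highest was 3.53% in liver replicate 2. mt-Cytb held 5.39% to 6.03% on day 12 and 6.54% to 7.93% in naive cells. The ratio of mt-Cytb to mt-Nd3 was 1.12 to 1.51 on day 12 and 2.19 to 2.92 in naive cells.

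Nuclear complex IV genes rose on day 12, where 5.95% of all genes were called higher. Of 11 nuclear complex IV genes, 8 rose, led by Cox5a at 1.59 ± 0.32 (SE) from 311 to 938 TPM, Cox5b at 1.25 ± 0.29 and Cox6b1 at 1.16 ± 0.35 (limma, adjusted p = 0.000637, 0.00341 and 0.0255), which encode subunits around the mitochondrial core. The 3 mitochondrial complex IV messengers mt-Co1, mt-Co2 and mt-Co3 had estimates of -0.35 ± 0.60 (SE), 0.16 ± 0.58 and 0.46 ± 0.59 and none was called. These SEs are larger than those of the nuclear genes named, so a rise of like size could go uncalled. Of 36 nuclear complex I genes 4 rose, with Ndufa12 at 1.07, Ndufb8 at 1.07 and Ndufb6 at 0.92. Of 15 complex V genes 3 rose (Atp5k at 1.37, Atp5j at 1.17 and Atp5g3 at 1.17), and of 77 mitochondrial ribosomal proteins 7 rose, led by Mrpl18 at 1.27, Mrpl27 at 1.12 and Mrpl28 at 1.01. Sdhb of complex II rose by 1.04 and Uqcrq of complex III by 0.84, each the only gene called of its list, of 4 and 9 genes. From RNA processing and stability, Rexo2, which degrades short RNAs in mitochondria, rose by 1.46 and Slirp, which stabilizes mitochondrial messengers, by 0.95, 2 of 27 genes. Of 9 regulators of mitochondrial biogenesis, Ppargc1b fell by 1.41. Against the 5.95% of all genes called higher, the 4 of 36 of complex I and the 7 of 77 ribosomal proteins lie above. The 2 of 27 of RNA processing lie slightly above. All of these are about at or below the 11.1% of all genes called in either direction. Median differences of the nuclear lists were 0.55 for complex I, 0.61 for II, 0.65 for III, 0.93 for IV and 0.71 for V. They were 0.34 for ribosomal proteins, -0.37 for RNA processing, -0.27 for DNA and transcription, -0.13 for tRNA synthetases and -0.34 for biogenesis regulators. Over all genes the median was -0.19, and over the 13 messengers -0.15. None of 13 genes of mitochondrial DNA and transcription was called.

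In lymph node memory cells against day 12, none of the 16 members was called (limma; 0 at an unadjusted p under 0.05; 7.41% of all genes called). Their estimates ran from -1.37 at mt-Nd4l to 0.98 at mt-Rnr1, and 11 of 13 messengers lay above 0, with a median of 0.11 against 0.26 over all genes. Of the nuclear lists 7 genes were called, all lower, where 2.99% of all genes were called lower. They were Ndufv2 of complex I (-0.77), Uqcrfs1 of complex III (-1.12), Atp5a1 and Atp5g3 of complex V (-1.08 and -1.303), Rexo2 (-1.32) and the ribosomal proteins Mrpl18 (-1.17) and Mrpl27 (-0.99). The comparison with naive cells shares the day 12 libraries. Memory replicate 1 held 1.10% messengers and the other 3 held 3.20%, 2.65% and 4.34%.

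Against naive cells, mt-Rnr1 gave the largest estimates among the members in memory and spleen cells. It was 165, 2056, 1444 and 538 TPM in lymph node memory replicates 1 to 4, and 1243, 2268, 1724 and 162 TPM in spleen replicates 1 to 4. The log2 difference from naive cells was 2.05 ± 0.97 (SE) in lymph node memory and 2.45 ± 0.97 in spleen (limma, adjusted p = 0.310 and 0.149). In both groups 3 of 4 libraries lay above every naive library and 1 lay among them. None of the 16 members was called in either comparison (limma; 1 at an unadjusted p under 0.05 in each), against 6.52% of all genes in lymph node memory and 6.08% in spleen. These comparisons share the naive libraries. Of 11 myeloid genes 10 were called higher in spleen and 4 in lymph node memory, and of 6 B cell genes 5 in each. The myeloid sums were 2.07 to 4.56 TPM in naive cells, 70.1 to 618 TPM in lymph node memory and 639 to 8560 TPM in spleen, and the part of these cells in the values of mt-Rnr1 was not tested. Without spleen replicate 4, mt-Rnr1 was called in spleen against naive cells, at 3.29 ± 0.97 (SE; limma, adjusted p = 0.0375), and 6.96% of all genes were. mt-Co1 and mt-Nd4 lay higher in spleen than in naive cells without overlap, as did 8.16% of all genes. Ndufb7 of complex I, at 1.29, and Uqcr11 of complex III, at 1.33, rose in spleen against naive cells (limma, adjusted p = 0.0307 and 0.0350), where 3.62% of all genes were called higher.

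The ratio of mt-Rnr2 to mt-Rnr1 split the libraries by their replicate number in 5 groups, which was seen after the values and is given without a test. In lymph node memory, spleen, skin, lung and liver, the 10 libraries numbered 2 and 3 lay between 2.45 and 3.40, with a median of 3.05. The 10 numbered 1 and 4 lay between 4.95 and 10.3, with a median of 8.63. No library of these 5 groups crossed over. Naive cells lay at 11.0 to 13.8, day 12 at 7.91 to 9.84 and tumor at 3.29 to 4.28, with no such split. No near-identical copy of either rRNA is annotated among the nuclear genes. The labels name no batch, and what the numbers stand for was not tested.

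**Figure D5:**
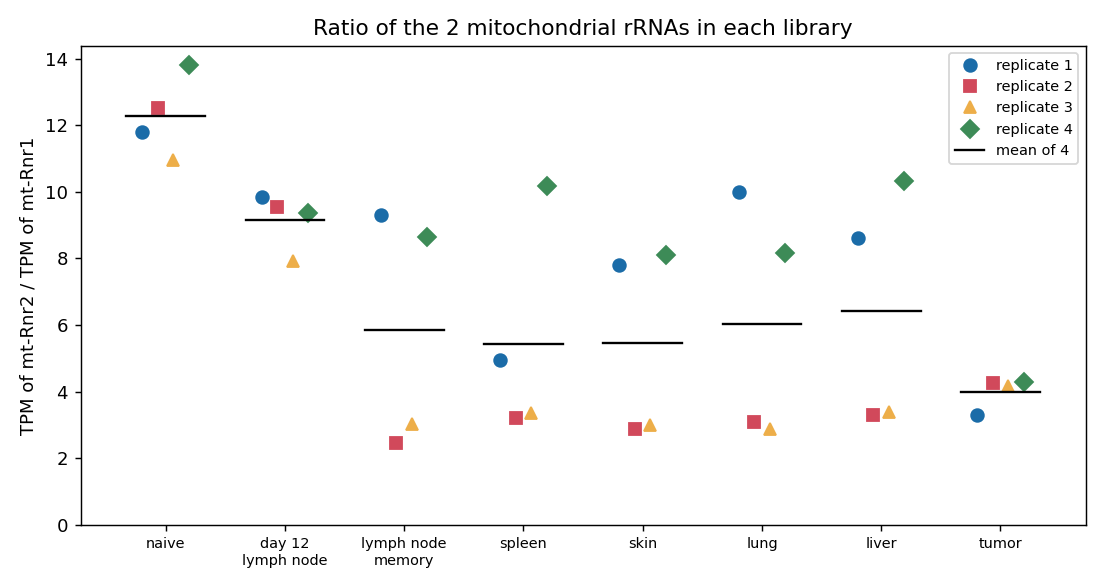
Ratio of mt-Rnr2 to mt-Rnr1 (TPM over TPM) in each library of the 8 groups, with the shape giving the replicate number and bars for means of 4. In lymph node memory, spleen, skin, lung and liver, replicates 2 and 3 lie between 2.45 and 3.40 and replicates 1 and 4 between 4.95 and 10.3.

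In mt-Rnr1 alone, spleen replicates 2 and 3 differed from the naive mean by 3.51 and replicates 1 and 4 by 1.38 on the log2 scale. In lymph node memory the same differences were 3.32 and 0.79. The tumor mean differed in mt-Rnr1 by -1.302 from spleen replicates 2 and 3 and by 0.84 from replicates 1 and 4. The pairs were picked by a ratio that holds mt-Rnr1 in these same libraries, so its opposite signs are not a separate result. For mt-Atp8 the tumor mean lay above both pairs, by 1.45 and 2.33, and mt-Atp6 by 1.47 and 1.996. mt-Nd2 changed sign between the pairs, with -0.16 and 0.81.

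Skin was set against spleen and against lymph node memory cells to ask what marks cells in the tissue of the vitiligo. None of the 16 members was called against spleen (limma; 0 at an unadjusted p under 0.05; 7.68% of all genes called) or against lymph node memory (0 and 0; 7.48%). Against spleen, 11 of the 13 messengers had estimates below 0, with a median of -0.39 against -0.12 over all genes. The lowest was mt-Nd6 at -1.21 ± 0.64 (SE; limma, adjusted p = 0.321), from 1255, 1035, 1341 and 558 TPM in spleen to 300.2, 242, 377 and 1226 TPM in skin. Skin replicates 1 to 3 lay below every spleen library and replicate 4 did not. With the libraries low in T cell genes left out, which include skin replicate 4 and spleen replicate 4, mt-Nd6 fell by 1.995 and mt-Nd5 by 1.35 (limma, adjusted p = 0.0107 and 0.0443), in a fit that called 16.5% of all genes. As a share of the messengers, mt-Nd6 held 1.29% to 2.37% in skin and 2.67% to 5.06% in spleen, without overlap.

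Part of the mitochondrial ribosomal proteins fell in skin. Of 77, 16 fell against spleen, where 3.34% of all genes were called lower, led by Mrpl34 at -2.08, Mrps16 at -1.84 and Mrpl43 at -1.48, and 12 fell against lymph node memory, with Mrpl34 at -1.70, where 4.31% of all genes were called lower. The list's median against spleen was -0.79, against -0.12 over all genes. The other nuclear lists had at most 1 gene called each in either comparison. Mterf1a, a factor of mitochondrial transcription, fell by 1.37 against spleen and by 2.33 against lymph node memory. Ftsj2, which methylates the large rRNA, fell by 2.30 and 2.78, and Pars2, the proline tRNA synthetase, by 1.67 and 2.45. Ndufs4 and Sdhb fell by 0.92 and 0.90 against spleen. In skin against spleen, all 6 keratinocyte genes and 5 of 6 stromal and endothelial genes rose, and all 6 B cell genes fell. The stromal and endothelial sums were 118.9 to 533.6 TPM in skin and 12.4 to 54.9 TPM in spleen. Keratinocyte sums were 91.7 to 2773 TPM in skin and 0.12 to 7.05 TPM in spleen, and the part of these cells in the result was not tested.

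Lung and liver were set against spleen as further tissues. In lung none of the 16 members was called (limma; 0 at an unadjusted p under 0.05), where 0.111% of all genes were. All 13 messengers had estimates below 0, from -0.92 to -0.36, with a median of -0.64. The 4 lung libraries held 1.01%, 1.44%, 3.59% and 2.82% messengers. No gene of the nuclear mitochondrial lists was called in lung.

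In liver none of the 16 members was called (limma; 0 at an unadjusted p under 0.05), where 13.6% of all genes were. The messengers had a median of 0.65 with 12 of 13 above 0, against -0.53 over all genes. mt-Atp8 was 3032, 22333, 5803 and 18559 TPM in the 4 liver libraries, a difference from spleen of 1.07 ± 0.53 (SE; limma, adjusted p = 0.156). mt-Cytb was 1207, 17669, 1442 and 10939 TPM, a difference of 1.10 ± 0.67 (adjusted p = 0.246, limma). For both, replicates 2 and 4 lay above every spleen library and replicates 1 and 3 did not. Without liver replicate 1, mt-Nd2, mt-Atp8 and mt-Atp6 were called higher, where 27.1% of all genes were called. With only the library richest in T cell RNA, replicate 1, left in the liver group and the others low in T cell genes left out, mt-Atp8 stood at -0.52 and mt-Cytb at -0.75, and mt-Nd3 fell by 2.93 (limma, adjusted p = 0.0409). That lone liver library was assumed to vary like the other groups.

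Of 77 mitochondrial ribosomal proteins 26 fell in liver, where 11.1% of all genes were called lower, led by Mrps5 at -2.74, Mrps35 at -2.63 and Mrpl23 at -2.55, and the median of the list was -0.97, against -0.53 over all genes. From RNA processing and stability 6 of 27 fell, led by Ftsj2 at -2.51, Hsd17b10 at -2.07 and Ptcd2 at -2.06, and of 17 tRNA synthetases 4 fell, led by Hars2 at -1.75. Polrmt, the mitochondrial RNA polymerase, fell by 2.09 and Esrra, a regulator of biogenesis, by 1.61. Ndufb3 of complex I fell by 0.97, and Atp5c1 and Atp5g2 of complex V by 1.42 and 1.12. These 3 were the ones called of the 75 nuclear subunits of complexes I to V, whose list medians of -0.33, -0.44, -0.12, -0.22 and -0.39 lay above that of all genes. The 16 T cell genes had a median of -1.12, with 2 called lower. All 8 hepatocyte genes and 4 of 5 erythroid genes rose in liver, with sums of 762 to 26559 and 557 to 91044 TPM, against 3.52 to 89.8 and 69.2 to 1178 TPM in spleen. Their part in these values was not tested.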

How the data were processed

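The authors deposited 1 table of natural log values of TPM + 1 for 46517 gene names in 32 libraries. Per the submitters' processing notes, Bowtie and the mm10 build were used, and the sources used here give no version, annotation or counting method. TPM were recovered as multiples of 0.01, summing to 999999.06 to 1000000.8 per library, and depth is unknown.

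Of 46517 genes, 19738 with at least 1 TPM in at least 4 libraries were tested on log2(TPM + 1) with limma 3.58.1 in R 4.3.3, with all 8 groups in 1 fit and a variance trend, and calls were made at an adjusted p under 0.05 (Benjamini-Hochberg over all genes tested). A log2 difference on this scale understates changes of low genes. Genes are named by a rule: all 13 messengers and 2 rRNAs, tRNAs at 1 TPM in at least 4 libraries, and up to 3 called genes per nuclear list and comparison. Members, lists and tests were chosen with earlier results of these data known. Gene positions and sequences come from the GENCODE vM21 annotation and transcripts of mm10, and near-identical copies were found with BLAST 2.17.0. Shares, ratios and figures were made with Python 3.11.15, pandas 2.3.3, NumPy 2.4.6 and Matplotlib 3.10.9. Alternatives were other filters, pseudocounts, weights, normalizations and omissions of libraries, a replicate block, and, added after the values were seen, the nuclear copies added to their genes.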

Additional observations from a re-analysis of the deposited data

Results flagged for a closer look

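In each group of 4, a library was marked where its gap to the nearest other library exceeded the critical share of that group's range in Dixon's test. This was tried in 168 groups of values and marked 24, or 2.86 per 20 groups. Chance marks about 1 in 20 where values are independent and normal. Here the values share libraries, and a group with a single library above 0 is always marked, so the rates cannot be compared.

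Skin replicate 4 stood above the other skin libraries in the messengers' share of the library (5.98%), mt-Nd1 (4586 TPM), mt-Nd2 (1486 TPM), mt-Co2 (7444 TPM), mt-Nd4 (2642 TPM), mt-Nd5 (777 TPM), mt-Nd6 (1226 TPM), mt-Cytb (5958 TPM) and mt-Tl1 (59.6 TPM). Skin replicate 3 stood above the others in the ratio of mt-Nd6 to mt-Cytb (0.370). Spleen replicate 3 was apart at mt-Nd1 (3506 TPM), mt-Co1 (2775 TPM) and mt-Nd5 (938 TPM). Liver replicate 2 was apart at mt-Co3 (46317 TPM) and mt-Nd3 (6991 TPM), and lung replicate 3 at mt-Nd3 (1250.2 TPM). Day 12 replicate 1 was low at mt-Nd3 (728 TPM).

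Tumor replicate 1 was low in the ratio of mt-Rnr2 to mt-Rnr1 (3.29). The ratio of rRNA to messengers was high in naive replicate 1 (0.142) and in day 12 replicate 4 (0.220). mt-Tl1 was above 0 in a single library of naive cells (replicate 2, 114.8 TPM), spleen (replicate 4, 92.8 TPM), lung (replicate 4, 106.8 TPM) and liver (replicate 4, 231.9 TPM), as in skin.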

How the results depend on the processing

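The number of members called was small in most comparisons and moved with the weighting and with single libraries. Among the 8 groups, 6 were called, and 3 with no filter, 3 with quantile normalization, 14 with weights per library, 13 with weights per group and 14 without the 6 libraries low in T cell genes. The weighted fits called 83.6% and 76.7% of all genes. Leaving out 1 library gave 0 to 13. For tumor minus spleen, 1 was called, and 0 with no filter, 6 with weights per library, 2 with quantile normalization and 6 without the 6 libraries low in T cell genes, with 0 to 2 over single omissions. A fit of those 2 groups alone called 1, mt-Nd4l in place of mt-Atp8. Day 12 minus naive had 0, and 7 with only the 2 groups fitted, 3 with weights per library and 4 with weights per group. Those 3 fits called 54.4%, 59.3% and 56.7% of all genes. Lymph node memory minus naive had 0, and 2 and 1 with weights per library and per group. Spleen minus naive had 0, and 1 with either weighting, 2 without the 6 libraries low in T cell genes and 0 to 1 over single omissions. Weights per library gave 6 calls in lymph node memory minus day 12 and 1 in skin minus lymph node memory, both 0 otherwise. Where no share of all genes stands beside a count in this section, the count cannot be read as above or below its background. Without the 6 libraries low in T cell genes, skin minus spleen had 2 and liver minus spleen 1, and liver minus spleen had 0 to 3 over single omissions. Lung minus spleen had 0 in all 12 alternatives. In tumor minus spleen, the share of messengers and the ratio of rRNA to messengers kept their direction in each setting tried. So did the ratio in spleen minus naive. Other comparisons of this share and this ratio were not tried.

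The sign of mt-Rnr1 in tumor minus spleen turned with quantile normalization (0.10) and in single omissions (0.19 without spleen replicate 2, 0.058 without spleen replicate 3 and 0.051 without tumor replicate 4). Over all single omissions mt-Rnr1 ran from -1.08 to 0.19 and mt-Nd2 from -0.016 to 0.63, where the lowest value of each came without spleen replicate 4. In liver minus spleen without the 6 libraries low in T cell genes, mt-Cytb stood at -0.75 and mt-Atp8 at -0.52. The cause was not tested. With nuclear copies added, mt-Co3 was no longer called among the 8 groups.

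Replicate numbers were not shown to pair samples: the correlations of same-numbered deviations ran from -0.39 to 0.47, and in no comparison were all 4 above 0.1. With a replicate block, 7 members were called among the 8 groups and 2, mt-Atp8 and mt-Tl1, in tumor minus spleen. No depth is known, so counting error is not included in any value.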
